A study of Mus musculus with 3 samples.

Results

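The 9 genes Mag, Mobp, Mbp, Mal, Myrf, Cnp, Mog, Cldn11 and Ugt8a were followed as listed members among the 54232 genes counted in each library. They comprise proteins and enzymes of the central myelin sheath, plus Myrf, a transcription factor of oligodendrocytes. The data are RNA-seq gene counts from cultured cortical neurons of wildtype CD1 mice, with 1 library in each of 3 groups. The first group grew with a self-assembling peptide amphiphile that displays IKVAV, a laminin-derived peptide, combined with a component called PS2 in the title and PEDOT-S_OH in the library name. It is written here as IKVAV PA + PEDOT-S, which takes both names to mean PEDOT-S, a water-soluble conducting polymer. The second group had the IKVAV peptide amphiphile alone (IKVAV PA), and the control group is labelled PDL, which the labels do not spell out. The treatment field names the peptide amphiphile for all 3 libraries, so the groups were read from the titles and library names. Culture age, animals and protocol details are given in the labels only by reference to a patent application. The libraries are all repeat 3 of their group, so no difference below has a replicate check, no test between groups was made, and the values describe these 3 libraries.

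Oligodendrocytes wrap axons in compacted membrane that is rich in galactolipids, cholesterol and a small set of structural proteins. They arise from precursor cells that carry Pdgfra and Cspg4 and are specified by Olig2 and Sox10. As precursors leave the cell cycle, Sox10 turns on Myrf, and both factors then drive the genes of the sheath. Several of these genes are also used outside the sheath: Mbp gives golli transcripts from an upstream start in neurons and immune cells, and Mal and Cldn11 are made in some epithelial and barrier cells. Counts per gene join all transcripts of a gene.

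The members' promoters are shown because Myrf and its partner Sox10 act on genes of this set and because Mag, Mobp and Mal had the largest ratios to the PDL control. RefSeq promoter sequences (GRCm38.p6) were matched for 7 of 9 members, and Mbp and Myrf are named only. In the 250 bases before the most upstream start of each gene, both strands were searched for CTGGCAC and CTGGTAC, letters described for Myrf binding in rat oligodendrocytes, and for AACAAAG and AACAATG, 2 forms of the sequence bound by Sox factors. Capitals below mark these letters, which overlapped nowhere in the members. The stretches lie at chr7:30914923-30915172 on the minus strand for Mag, chr9:120149492-120149706 on the plus strand for Mobp, chr2:127656696-127656945 on the minus strand for Mal, chr11:100574689-100574903 on the plus strand for Cnp and chr17:37023399-37023648 on the minus strand for Mog. For Mobp and Cnp the last 35 bases of the window were left out, since GENCODE places them in the gene's first exon.
Mag: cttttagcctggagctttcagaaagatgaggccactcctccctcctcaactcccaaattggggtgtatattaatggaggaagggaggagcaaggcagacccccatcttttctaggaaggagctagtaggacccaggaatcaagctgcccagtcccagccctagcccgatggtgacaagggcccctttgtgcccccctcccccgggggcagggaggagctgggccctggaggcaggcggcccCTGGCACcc
Mobp: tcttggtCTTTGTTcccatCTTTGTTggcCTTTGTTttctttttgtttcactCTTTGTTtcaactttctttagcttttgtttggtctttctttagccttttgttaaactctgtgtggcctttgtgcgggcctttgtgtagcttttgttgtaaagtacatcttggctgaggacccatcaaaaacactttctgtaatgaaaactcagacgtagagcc
Mal: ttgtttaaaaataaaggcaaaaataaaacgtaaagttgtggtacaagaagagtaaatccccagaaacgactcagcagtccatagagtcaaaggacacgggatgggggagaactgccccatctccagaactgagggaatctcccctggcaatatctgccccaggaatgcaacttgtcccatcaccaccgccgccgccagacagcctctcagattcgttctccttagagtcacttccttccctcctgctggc
Cnp: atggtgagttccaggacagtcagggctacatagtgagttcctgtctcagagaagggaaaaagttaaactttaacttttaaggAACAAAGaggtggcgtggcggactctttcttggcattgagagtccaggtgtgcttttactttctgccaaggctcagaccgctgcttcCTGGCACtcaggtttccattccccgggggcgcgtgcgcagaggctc
Mog: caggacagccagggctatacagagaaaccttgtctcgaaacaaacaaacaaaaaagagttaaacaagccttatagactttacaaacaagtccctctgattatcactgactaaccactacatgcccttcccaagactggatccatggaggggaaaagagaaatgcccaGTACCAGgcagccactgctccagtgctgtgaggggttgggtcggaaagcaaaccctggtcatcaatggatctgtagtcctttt
The Myrf letters occurred in Mag, at bases 9 to 3 before the start, in Cnp, and on the opposite strand in Mog. Of all 27018 promoters of this length, 5.88% held at least 1 such match. In Mobp the Sox letters occurred 4 times on the opposite strand, as CTTTGTT, between bases 243 and 192 before the start. At least 1 Sox match was found in 8.12% of promoters, at least 3 in 0.0259%, and 4 in 1 of 27018, which is Mobp itself. Cnp held 1 Sox match, and Mal, Cldn11 and Ugt8a held none of the letters searched. A match is a description of the letters in this window and says nothing of binding in these cultures.

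Library totals were 79057998 counts in IKVAV PA + PEDOT-S, 124425958 counts in IKVAV PA and 78993105 counts in PDL. Levels are given as normalised CPM, each gene's share of a library total scaled by trimmed-mean (TMM) factors between 0.99 and 1.01. Ratios carry a 95% counting interval, which covers counting error alone: amplified reads that lack molecular identifiers are not separate molecules. A gene was called higher or lower when its whole interval lay beyond a 1.5-fold difference in that direction. For the background, 13884 genes with at least 1 CPM of the deposited total in at least 1 library were compared. Of the members 8 passed this filter, Mal through the IKVAV PA + PEDOT-S library alone, so Mal could be kept only where it was high there and its call carries no weight of its own. Cldn11 fell just short, with 0.999 CPM of the deposited total in its highest library, and is described but not counted as called. The neuron label held for the main marker list: 12 of 12 neuronal genes were at 1 CPM or more in every library, with summed levels of 10568, 10839 and 10637 normalised CPM in IKVAV PA + PEDOT-S, IKVAV PA and PDL.

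Of the members that passed the filter, 5 of 8 were called higher in IKVAV PA + PEDOT-S than in PDL (Mal, Mobp, Mag, Myrf and Mbp), where 0.447% of all genes compared were higher and 4.21% were called in either direction. No member was called lower in any of the 3 comparisons. In IKVAV PA against PDL 3 of 8 were called higher (Mal, Mobp and Mag), where 0.540% of all genes were higher and 3.96% were called in either direction. Between the scaffolds 5 of 8 were called higher in IKVAV PA + PEDOT-S than in IKVAV PA (the 5 above), where 0.331% of all genes were higher and 2.35% were called in either direction. With a filter on the mean of the 3 libraries, which does not hang on 1 high library and leaves out Mal, 4 of 7 members were higher in IKVAV PA + PEDOT-S than in PDL, where 0.417% of genes were. By that filter, chosen after seeing the data, 2 of 7 were higher in IKVAV PA than in PDL (0.372% of genes) and 4 of 7 in IKVAV PA + PEDOT-S than in IKVAV PA (0.246%). Of the 9 members 6 had a mean level under 5 CPM, and among the 3245 genes that weak, 0.832%, 1.88% and 0.770% were called higher in these comparisons. Among the same weak genes 11.7%, 10.3% and 6.35% were called lower, beside 3.76%, 3.42% and 2.02% of all genes compared. The median log2 ratio of all 9 members was 1.11, 0.23 and 0.89, beside 0.00, 0.00 and 0.01 for all genes compared. The comparisons share libraries: the PDL library stands under both scaffolds, and the ratio between the scaffolds follows from their ratios to it. In cultures sequenced in bulk, more cells of a type and more RNA per cell cannot be told apart.

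**Figure D1:**
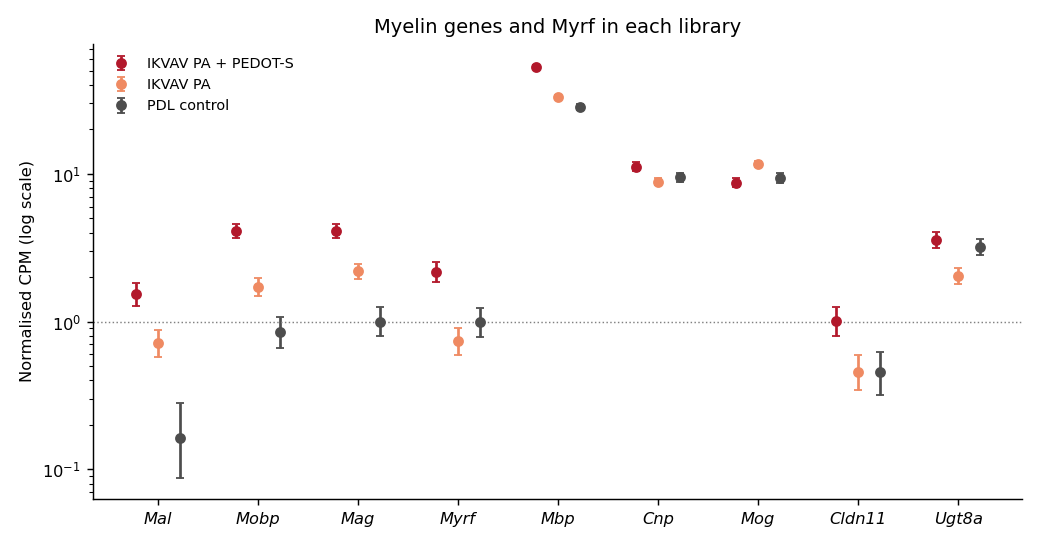
Normalised CPM (log axis) of each gene in the IKVAV PA + PEDOT-S, IKVAV PA and PDL control libraries, with 95% counting intervals as bars and 1 CPM as the dotted line. Mal, Mobp and Mag step down from IKVAV PA + PEDOT-S over IKVAV PA to PDL with intervals apart. Cnp and Mog differ less, though Cnp in IKVAV PA + PEDOT-S and Mog in IKVAV PA also have intervals apart from the other libraries.

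Myrf is a membrane-bound transcription factor that cuts itself free and switches on myelin genes (chromosome 19, 10208272 to 10240748, minus strand, in GENCODE M21 on GRCm38). It stood at 2.17 CPM in IKVAV PA + PEDOT-S, 0.738 CPM in IKVAV PA and 0.992 CPM in PDL, from 170, 92 and 79 counts. The IKVAV PA + PEDOT-S library thus stood alone, and the intervals of the other two overlapped. Myrf was 2.94-fold higher in IKVAV PA + PEDOT-S than in IKVAV PA (2.27 to 3.83), the second largest ratio among the genes compared when a prior count of 2 is added, and 2.19-fold higher than in PDL (1.67 to 2.90). In IKVAV PA against PDL the log2 ratio was -0.43 (-0.88 to 0.03), so Myrf did not share the higher ratios of Mal, Mobp and Mag there. Sox10, the factor upstream of Myrf, was not called in any comparison, with 1.03 CPM in IKVAV PA + PEDOT-S, 0.738 CPM in IKVAV PA and 1.29 CPM in PDL. Tmem98, a membrane protein that blocks the self-cleavage of Myrf, was 2.61-fold lower in IKVAV PA + PEDOT-S and 2.14-fold lower in IKVAV PA than in PDL (0.754 and 0.923 against 1.97 CPM). It passed the filter through the PDL library alone, so its lower calls carry no weight of their own. Between the scaffolds the log2 ratio of Tmem98 was -0.29 (-0.77 to 0.17).

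Mal is a small proteolipid that sorts membrane lipids and proteins toward myelin (chromosome 2, 127633226 to 127656695, minus strand). It had 120 counts in IKVAV PA + PEDOT-S, 89 counts in IKVAV PA and 13 counts in PDL, or 1.53, 0.714 and 0.163 CPM. All 3 intervals were apart. Mal was 9.39-fold higher in IKVAV PA + PEDOT-S than in PDL (5.29 to 18.2). Mal passed the filter through the IKVAV PA + PEDOT-S library alone, so its place among the genes compared carries no weight. It was 4.38-fold higher in IKVAV PA than in PDL (2.43 to 8.54), and 2.15-fold higher in IKVAV PA + PEDOT-S than in IKVAV PA (1.62 to 2.86). Both ratios to PDL rest on the same 13 counts.

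Mobp is a basic protein of the compact sheath, found on its cytoplasmic face (chromosome 9, 120149707 to 120181484, plus strand). It reached 4.13 CPM in IKVAV PA + PEDOT-S, 1.72 CPM in IKVAV PA and 0.854 CPM in PDL, from 323, 214 and 68 counts. The intervals did not meet, and the order was that of Mal. Mobp was 4.83-fold higher in IKVAV PA + PEDOT-S than in PDL (3.71 to 6.37) and 2.40-fold higher than in IKVAV PA (2.02 to 2.87). In IKVAV PA against PDL it was 2.01-fold higher (1.52 to 2.68), with the lower bound close to 1.5-fold. Of its exonic bases 1.15% are shared with another gene model.

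Mag is an adhesion molecule of the innermost myelin layer that faces the axon (chromosome 7, 30899176 to 30914873, minus strand). Its levels were 4.10 CPM in IKVAV PA + PEDOT-S, 2.20 CPM in IKVAV PA and 1.0 CPM in PDL, from 321, 274 and 80 counts. Again the 3 intervals were apart in the same order. Mag was 4.08-fold higher in IKVAV PA + PEDOT-S than in PDL (3.19 to 5.28), 2.19-fold higher in IKVAV PA than in PDL (1.70 to 2.84), and 1.87-fold higher in IKVAV PA + PEDOT-S than in IKVAV PA (1.58 to 2.20).

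Mbp is the main basic protein that zips the cytoplasmic faces of myelin together (chromosome 18, 82475146 to 82585637, plus strand). With 53.3 CPM in IKVAV PA + PEDOT-S, 33.2 CPM in IKVAV PA and 28.3 CPM in PDL it supplied 59.4%, 53.8% and 52.5% of the members' counts. The step lay mainly between IKVAV PA + PEDOT-S and the other two libraries. Mbp was 1.88-fold higher there than in PDL (1.79 to 1.98) and 1.61-fold higher than in IKVAV PA (1.54 to 1.68), while IKVAV PA against PDL gave 1.17-fold (1.11 to 1.24). With 4172, 4135 and 2253 counts in IKVAV PA + PEDOT-S, IKVAV PA and PDL these intervals are narrow, but golli and myelin transcripts are joined in them.

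Mog, an immunoglobulin-like protein of the outermost myelin layer (chromosome 17, 37010743 to 37023398, minus strand), went another way. It stood at 8.74 CPM in IKVAV PA + PEDOT-S, 11.7 CPM in IKVAV PA and 9.40 CPM in PDL, so IKVAV PA was the highest of the 3. The log2 ratio was -0.42 in IKVAV PA + PEDOT-S against IKVAV PA (-0.56 to -0.29), and 0.32 in IKVAV PA against PDL (0.19 to 0.45). Against PDL the IKVAV PA + PEDOT-S library gave -0.11 (-0.26 to 0.05), and no ratio of Mog passed the 1.5-fold bound. Cldn11, the claudin of the tight junctions within myelin (chromosome 3, 31149920 to 31164324, plus strand), had 79 counts in IKVAV PA + PEDOT-S, 57 counts in IKVAV PA and 36 counts in PDL. At 1.01, 0.457 and 0.452 CPM it did not differ between IKVAV PA and PDL beyond counting error. Its ratio was 2.21-fold in IKVAV PA + PEDOT-S against IKVAV PA (1.55 to 3.16), past the bound though outside the filter, and 2.23-fold against PDL (1.49 to 3.41), just short of it. Thinned to 1 common total, the first of these no longer passed (log2 ratio 1.11).

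Neither enzyme was called in any comparison. Cnp, a phosphodiesterase that keeps cytoplasmic channels open in myelin (chromosome 11, 100574904 to 100591729, plus strand), stood at 11.2 CPM in IKVAV PA + PEDOT-S, 8.87 CPM in IKVAV PA and 9.52 CPM in PDL. Its log2 ratios were 0.24 (0.10 to 0.38) in IKVAV PA + PEDOT-S against PDL, -0.10 (-0.24 to 0.03) in IKVAV PA against PDL, and 0.34 (0.21 to 0.47) between the scaffolds. All lay within the bound, and 4.23% of its exonic bases are shared with Dnajc7 on the other strand. Ugt8a makes galactosylceramide, the main galactolipid of the sheath (chromosome 3, 125865271 to 125938619, minus strand). It had 3.58 CPM in IKVAV PA + PEDOT-S, 2.04 CPM in IKVAV PA and 3.21 CPM in PDL, with IKVAV PA below the other two. The log2 ratio to PDL was 0.15 (-0.10 to 0.40) in IKVAV PA + PEDOT-S and -0.66 (-0.91 to -0.40) in IKVAV PA. At 0.81 between the scaffolds (0.56 to 1.06) its lower bound fell just short of 1.5-fold.

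**Figure D2:**
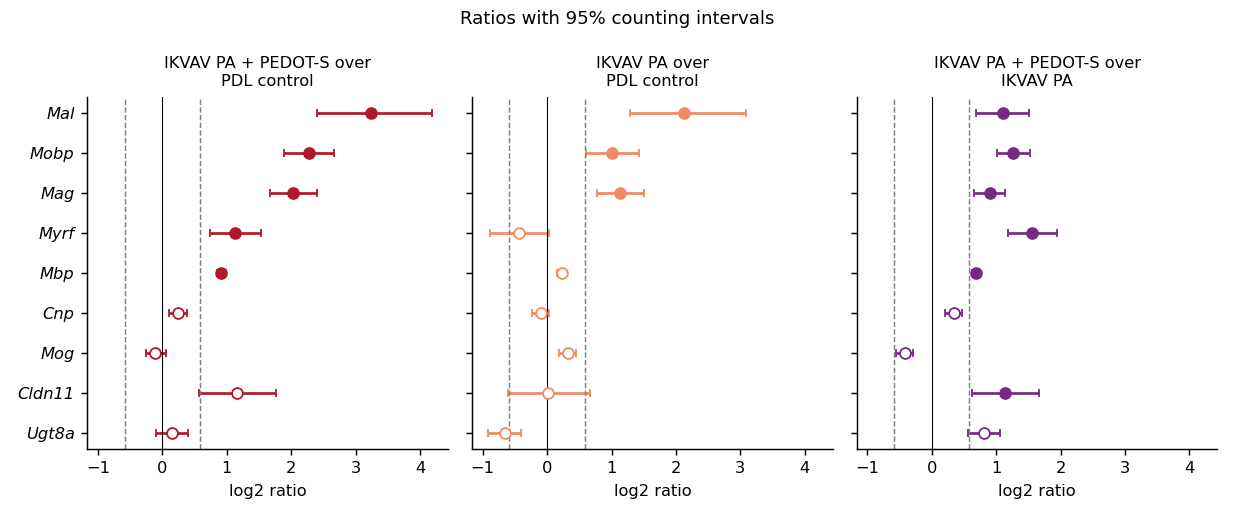
Log2 ratios of the 9 genes in the 3 comparisons, with 95% counting intervals as bars and 1.5-fold as dashed lines; filled points lie beyond 1.5-fold by their nearest bound. Mal has the widest interval in both comparisons with PDL control (2.40 to 4.18 and 1.28 to 3.09). Cldn11 has the widest between the scaffolds (0.63 to 1.66), and Mbp the narrowest in all 3. Myrf, Cnp and Ugt8a lie left of 0 in IKVAV PA over PDL control alone.

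Summed over the 9 members, levels were 89.8 CPM in IKVAV PA + PEDOT-S, 61.6 CPM in IKVAV PA and 53.9 CPM in PDL. Without Mbp the sums were 36.5 CPM in IKVAV PA + PEDOT-S, 28.4 CPM in IKVAV PA and 25.6 CPM in PDL, and Cnp and Mog made up most of that remainder. Mag, Mobp and Mal alone summed to 9.76 CPM in IKVAV PA + PEDOT-S, 4.63 CPM in IKVAV PA and 2.02 CPM in PDL. The genes with the largest ratios thus carried a small part of the members' RNA.

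**Figure D3:**
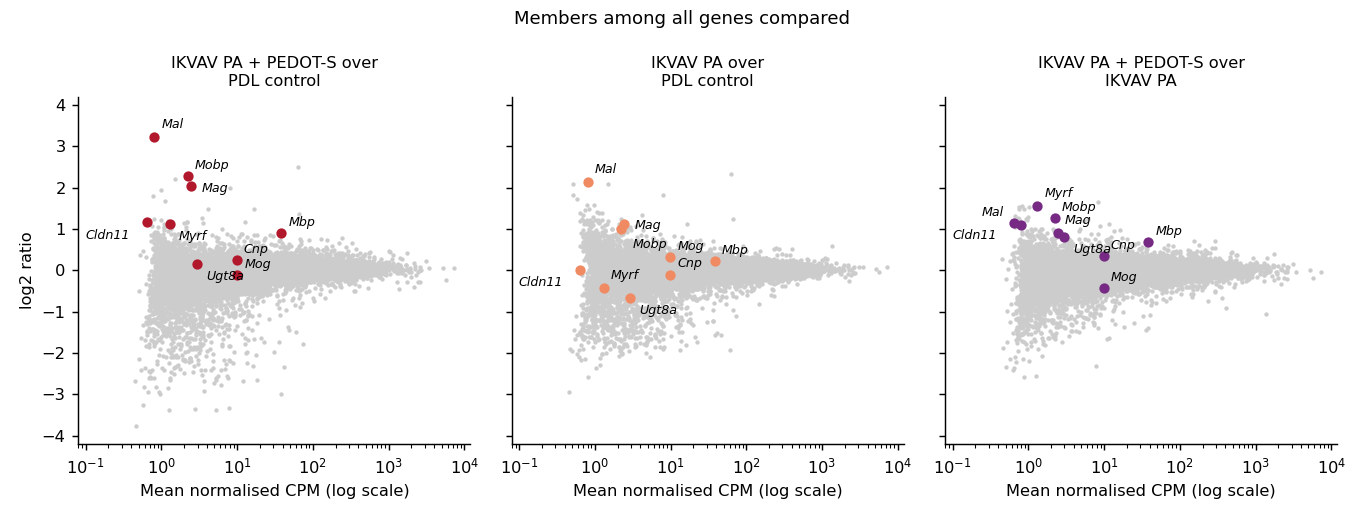
Log2 ratio against mean normalised CPM (log axis) for the 13884 genes compared (grey) and the 9 members (coloured), in each comparison. In IKVAV PA + PEDOT-S over PDL control Mal, Mobp and Mag (3.23, 2.27 and 2.03) lie at the upper edge among weakly expressed genes, whereas Cnp, Mog and Ugt8a lie within the cloud.

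Per kilobase of merged exon, Mog and Mbp led the order in all 3 libraries. Mbp was first in IKVAV PA + PEDOT-S (6.29 CPM per kb, against 5.13 for Mog). Mog was first in IKVAV PA (6.87, against 3.92 for Mbp) and in PDL (5.52, against 3.34 for Mbp). Cnp followed Mog and Mbp throughout, at 3.09, 2.44 and 2.62 CPM per kb in IKVAV PA + PEDOT-S, IKVAV PA and PDL. The lower part of the order differed: Ugt8a stood above Mag in PDL (0.709 against 0.247 CPM per kb) and below it in IKVAV PA + PEDOT-S (0.789 against 1.01). Mal was last in PDL at 0.0587 CPM per kb, and Myrf was last in IKVAV PA + PEDOT-S (0.254) and in IKVAV PA (0.0862). Neighbours whose intervals overlapped were Mobp, Mal and Cldn11 in IKVAV PA + PEDOT-S. In IKVAV PA they were Mag and Ugt8a, and Mal, Mobp and Cldn11, and in PDL Mag and Cldn11, and Mobp, Myrf and Mal. In IKVAV PA + PEDOT-S, 53.8% of the compared genes had a lower level per kb than Mbp and 11.6% a lower one than Mal. In PDL the same figures were 38.5% for Mbp and 0.0432% for Mal. Exons were merged over all transcripts of a gene, which lowers the value of genes with long alternative ends such as Mbp (8469 bases, against 1704 for Mog).

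**Figure D4:**
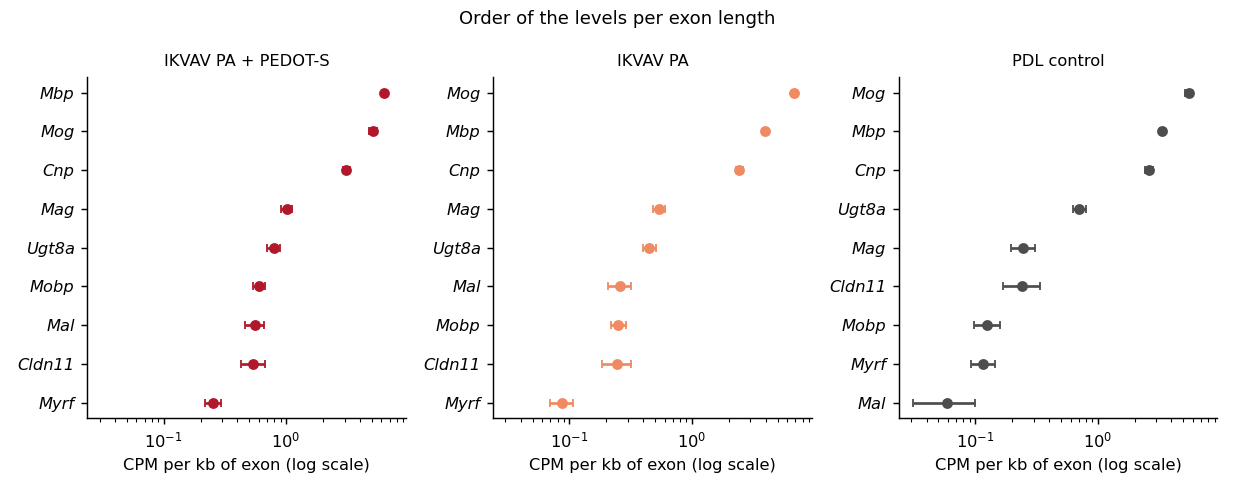
Level per kilobase of merged exon (normalised CPM per kb, log axis) in each library, sorted from highest to lowest, with 95% counting intervals as bars. Mbp leads in IKVAV PA + PEDOT-S (6.29) and Mog in IKVAV PA (6.87) and PDL control (5.52), and Mal is last in PDL control (0.0587).

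Other genes of myelin and mature oligodendrocytes had median ratios below or near 0. Of 32 listed genes 19 passed the filter, and 1 was called higher and 5 lower in IKVAV PA + PEDOT-S against PDL, with a median log2 ratio of -0.13. In IKVAV PA against PDL 0 were higher and 7 lower (median -0.58), and between the scaffolds 1 was higher and 0 lower (median 0.08). Over all genes compared 3.76% were lower in IKVAV PA + PEDOT-S and 3.42% in IKVAV PA against PDL. Among genes with a mean level under 5 CPM these shares were 11.7% and 10.3%. The higher gene between the scaffolds was Ermn, a cytoskeletal protein of myelinating cells, at 1.09 CPM in IKVAV PA + PEDOT-S and 0.473 CPM in IKVAV PA. Ermn passed the filter through the IKVAV PA + PEDOT-S library alone, where it was high. Several of the lower genes are also used outside myelin: Anln, a septin-binding protein also used in cell division, was at -1.94 and -1.44 on the log2 scale in IKVAV PA + PEDOT-S and IKVAV PA against PDL, Pmp22 at -1.22 and -1.28, and the chaperone Cryab at -1.34 and -0.99, though 17.0% of its exonic bases are shared. Markers of fully mature oligodendrocytes stayed near 0: Opalin had 3, 4 and 0 counts in IKVAV PA + PEDOT-S, IKVAV PA and PDL, Aspa 1, 0 and 1, and Klk6 0 in all 3. The limit taken for a count of 0 was 3 counts. It equals 0.0383 CPM in IKVAV PA + PEDOT-S, 0.0241 CPM in IKVAV PA and 0.0377 CPM in PDL. The upper Poisson bounds at 0 counts are 0.0471, 0.0296 and 0.0463 CPM in the same order.

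In the list for myelin lipid synthesis, 10 of 13 genes passed the filter and none was called higher in any comparison. Lower against PDL were Acsbg1, an acyl-CoA synthetase (log2 ratio -1.23 in IKVAV PA + PEDOT-S and -1.60 in IKVAV PA), and Elovl1, a fatty acid elongase (-1.10 in IKVAV PA + PEDOT-S, and within the bound at -0.16 in IKVAV PA). Among genes with a mean level under 5 CPM, 11.7% were lower in IKVAV PA + PEDOT-S and 10.3% in IKVAV PA against PDL.

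Some precursor genes and lineage regulators were lower with both scaffolds than in PDL. Of 16 precursor genes 13 passed the filter, and 4 were called lower and none higher in IKVAV PA + PEDOT-S against PDL (median -0.45), where 3.76% of all genes were lower. In IKVAV PA against PDL 5 were called lower and none higher (median -0.42), where 3.42% of all genes were lower. Among genes with a mean level under 5 CPM, 11.7% and 10.3% were lower in these comparisons. Cspg4, the NG2 proteoglycan, stood at 1.09 CPM in IKVAV PA + PEDOT-S, 3.01 CPM in IKVAV PA and 6.92 CPM in PDL, an order opposite to that of Mal, Mobp and Mag. Pdgfra, the receptor for platelet-derived growth factor, was ordered the same way, at 1.81 CPM in IKVAV PA + PEDOT-S, 4.06 CPM in IKVAV PA and 10.7 CPM in PDL. Cspg4 is also made by pericytes and Pdgfra by fibroblasts, whose lists below hold them too. Olig1 and Olig2, the transcription factors that specify the lineage, summed to 11.1 CPM in IKVAV PA + PEDOT-S and 11.4 CPM in IKVAV PA, against 42.1 CPM in PDL. Between the scaffolds their joint log2 ratio was -0.03 (-0.16 to 0.09), in the comparison in which Myrf had its largest ratio. Of 11 regulators that passed the filter, 3 were lower in IKVAV PA + PEDOT-S and 4 in IKVAV PA against PDL. Besides Olig1 and Olig2 these were Tcf7l2, a Wnt pathway factor (log2 ratios -1.06 and -1.36), and in IKVAV PA Sox8 (-1.17), 10.6% of whose exonic bases are shared. Among Myrf partners and inhibitors of myelination 10 of 12 genes passed the filter, with 1 lower in IKVAV PA + PEDOT-S against PDL (Tmem98), 2 lower in IKVAV PA against PDL (Tmem98 and Gpr17) and 1 higher between the scaffolds (Gpr17).

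Of 9 genes of newly formed oligodendrocytes that passed the filter, 2 were called higher in IKVAV PA + PEDOT-S than in IKVAV PA and 0 lower. Against PDL 0 were higher, 2 were lower in IKVAV PA + PEDOT-S and 4 were lower in IKVAV PA. Of all genes compared 3.76% and 3.42% were lower there, and of genes with a mean level under 5 CPM 11.7% and 10.3%. Bcas1, which marks cells that begin to myelinate, stood at 1.23 CPM in IKVAV PA + PEDOT-S, 0.497 CPM in IKVAV PA and 1.24 CPM in PDL, and 12.6% of its exonic bases are shared. Gpr17, a receptor of cells committed to the lineage, followed the same order with 0.869 CPM in IKVAV PA + PEDOT-S, 0.369 CPM in IKVAV PA and 1.02 CPM in PDL. In both genes the IKVAV PA library was low and the other two did not differ beyond counting error, as for Ugt8a. Itpr2, a calcium release channel, was lower in both scaffolds than in PDL (log2 ratios -1.59 in IKVAV PA + PEDOT-S and -1.66 in IKVAV PA). Gpr17, Itpr2 and Tcf7l2 passed the filter through the PDL library alone, so their lower calls against PDL were open in that direction only.

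**Figure D5:**
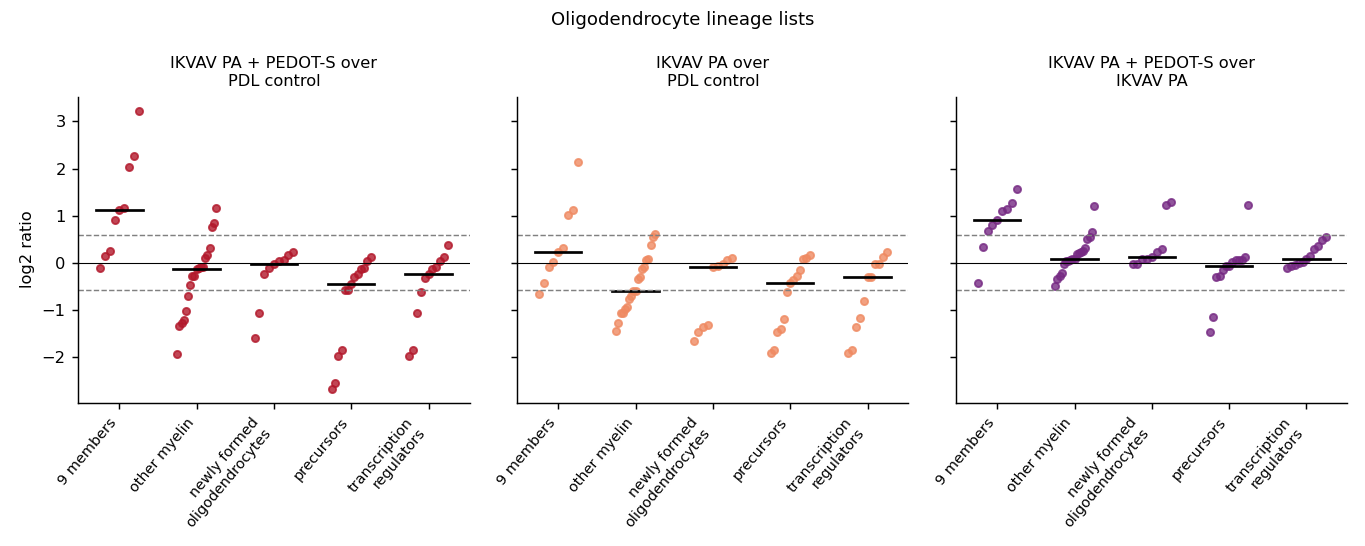
Log2 ratios of the 9 members and of the genes passing the filter in 4 lineage lists, in each comparison, 1 point per gene; black bars are medians and dashed lines mark 1.5-fold. The members have the highest median in each panel (1.13, 0.23 and 0.90, drawn without a prior count). Cspg4, Pdgfra, Olig1 and Olig2 lie in the low tail of the precursors in both comparisons with PDL control.

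Levels of other cell types also differed between the libraries. Astrocyte markers summed to 225 CPM in IKVAV PA + PEDOT-S, 219 CPM in IKVAV PA and 307 CPM in PDL. Of 10 that passed the filter, 4 were called lower in IKVAV PA + PEDOT-S and 8 in IKVAV PA against PDL, and Gjb6 had 0 counts in all 3 libraries. Lower calls took in 3.76% and 3.42% of all genes there, and 11.7% and 10.3% of genes with a mean level under 5 CPM. Kcnj10, a potassium channel, stood at 4.32 CPM in IKVAV PA + PEDOT-S, 4.07 CPM in IKVAV PA and 15.3 CPM in PDL. Gfap, an intermediate filament protein of astrocytes, had the opposite sign, with 1.39 CPM in IKVAV PA + PEDOT-S, 0.497 CPM in IKVAV PA and 0.402 CPM in PDL, and was called higher in IKVAV PA + PEDOT-S against both other libraries. It passed the filter through that library alone, so this call too was open in that direction only.

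Meningeal fibroblast markers summed to 14.8 CPM in IKVAV PA + PEDOT-S, 30.0 CPM in IKVAV PA and 65.7 CPM in PDL. All 6 that passed the filter, of 12 listed, were lower in IKVAV PA + PEDOT-S than in PDL and 3 were lower in IKVAV PA, and Slc22a6 had 0 counts in every library. Col1a1, a fibrillar collagen, stood at 5.61 CPM in IKVAV PA + PEDOT-S, 14.5 CPM in IKVAV PA and 35.0 CPM in PDL. Endothelial and pericyte markers summed to 9.35 CPM in IKVAV PA + PEDOT-S, 14.7 CPM in IKVAV PA and 25.6 CPM in PDL, with 4 and 3 of 5 lower against PDL. The shares lower in these comparisons were 3.76% and 3.42% of all genes, and 11.7% and 10.3% under a mean of 5 CPM. The part of astrocytes, fibroblasts and vessel cells in the myelin results was not tested.

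Schwann cells, the myelinating cells of peripheral nerve, also make Mag, Mbp and Mal. Pmp2, a lipid-binding protein of peripheral myelin, had 0 counts in IKVAV PA + PEDOT-S, 0 counts in IKVAV PA and 1 count in PDL, with 86.9% of its exonic bases shared, and Foxd3 had 0 in all 3. Of 10 Schwann markers 5 passed the filter, and the 10 summed to 114 CPM in IKVAV PA + PEDOT-S, 98.9 CPM in IKVAV PA and 76.3 CPM in PDL, most of it Pou3f1, which neurons also express. Of 12 microglial genes 3 passed the filter and none was called in any comparison, with sums of 9.98 CPM in IKVAV PA + PEDOT-S, 9.28 CPM in IKVAV PA and 9.88 CPM in PDL. Choroid plexus and ependymal genes summed to 22.3 CPM in IKVAV PA + PEDOT-S, 15.7 CPM in IKVAV PA and 24.5 CPM in PDL. Of 10 listed 4 passed the filter, and Tmem212 had 0 counts in every library. Against PDL 2 were called lower in IKVAV PA + PEDOT-S (Rsph1 and Aqp1) and 1 in IKVAV PA (Ttr). Over all genes 3.76% and 3.42% were lower in these comparisons, and 11.7% and 10.3% under a mean of 5 CPM. Between the scaffolds Ttr was called higher and Aqp1 lower. Ttr stood at 12.3 CPM in IKVAV PA + PEDOT-S, 3.93 CPM in IKVAV PA and 8.49 CPM in PDL. Aqp1 passed the filter through the PDL library alone, so its lower call against PDL was open in that direction only.

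The 5 other genes with the pattern nearest to the members were found by distance in the pair of log2 ratios to PDL, measured from the members' medians of 1.11 and 0.23 over the 3 libraries. They were Slc1a5, a transporter of neutral amino acids (distance 0.129), Mc4r, a melanocortin receptor (0.211), Plk5, a polo-like kinase (0.219), Lhx8, a homeobox factor (0.247), and S1pr5, a sphingosine phosphate receptor (0.284). Slc1a5 stood at 8.87 CPM in IKVAV PA + PEDOT-S, 5.34 CPM in IKVAV PA and 4.47 CPM in PDL, and S1pr5 at 2.06 CPM in IKVAV PA + PEDOT-S, 1.19 CPM in IKVAV PA and 1.12 CPM in PDL. Slc1a5, Mc4r and Plk5 were called higher in IKVAV PA + PEDOT-S than in PDL, and Lhx8 and S1pr5 were not. Over 3 libraries this nearness is a description of their values.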

How the data were processed

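The deposited files hold whole-number read counts per Ensembl gene, 1 file per library, not normalised. STAR 2.7.5 and HTSeq 2.0.2, besides DESeq2 1.14.1, cutadapt 4.2 and the build mm10, are named per the submitters' processing notes. Of their order, annotation release, strand setting and filters nothing is given in the sources used here, so reads of overlapping and antisense genes cannot be told apart. Per the labels' protocols the kit was for total RNA, whereas the molecule field reads polyA RNA.

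GENCODE M21 (GRCm38) gave symbols, positions and exon lengths for 54165 of the 54232 genes, and RefSeq (GRCm38.p6) the promoters. Genes at 1 CPM or more in at least 1 library were scaled with TMM factors (edgeR 4.0.16, R 4.3.3). Ratios have exact (Clopper-Pearson) binomial 95% intervals, with both libraries' counts as the number of trials, levels have exact Poisson intervals, and list medians use a prior count of 2. The calculation was tested on simulated data. Other settings tried were total counts, size factors from DESeq2 1.42.0, other filters and bounds, thinning, protein-coding scaling, 99% intervals, another prior count and, added after seeing the data, a filter on the mean. The limit for a count of 0 is 3 counts.

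Named genes were the 9 members, up to 4 called genes per list, Sox10, Olig1, Olig2, Tmem98 and Cspg4, and the 5 genes of nearest pattern, with Ermn, Opalin, Aspa, Klk6, Pmp2, Foxd3 and Pou3f1 named after their values were seen. For lists of other cell types the leading called genes are given in part. Gfap, Kcnj10 and Col1a1 are among them. A few other genes under this rule are left out here. Members and lists were chosen with earlier results of these data known.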

Additional observations from a re-analysis of the deposited data

Results flagged for a closer look

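In 4 members the ratios of the scaffolds to the PDL control had opposite signs. With 1 library per group this difference was not tested. Myrf had a log2 ratio of 1.13 in IKVAV PA + PEDOT-S and -0.43 in IKVAV PA against PDL, which is 1.56 between the scaffolds. Ugt8a had 0.15 and -0.66, which is 0.81 between the scaffolds. Cnp had 0.24 and -0.10, which is 0.34 between the scaffolds. Mog had -0.11 and 0.32, which is -0.42 between the scaffolds and the reverse of the other three. Of these ratios between the scaffolds, Myrf alone passed the 1.5-fold bound.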

How the results depend on the processing

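Each of the 27 member ratios was recomputed under 4 other scalings or depths, and 107 of 108 values kept their side of the 1.5-fold bound. The exception was Cldn11 between the scaffolds with thinned libraries (1.11). No called ratio changed sign. Members called higher were 5 in IKVAV PA + PEDOT-S against PDL, 3 in IKVAV PA against PDL and 5 between the scaffolds. With a 2-fold bound they were 3, 1 and 2. With a filter at 5 CPM, which 3 of the members pass, they were 1, 0 and 1. With an interval that only leaves out no difference, IKVAV PA against PDL gave 5 higher and 1 lower (Ugt8a), and 1 was lower between the scaffolds (Mog). The mean log2 ratio in IKVAV PA against PDL was 0.39, beside a median of 0.23. Over all genes, those called higher were 62, 75 and 46 in these comparisons, 247, 484 and 230 without a filter, 37, 18 and 23 at 5 CPM, 13, 9 and 7 at 2-fold, and 3968, 3894 and 4364 with an interval that only leaves out no difference. Those called lower were 522, 475 and 280, and 1082, 846 and 1123 without a filter, 232, 227 and 96 at 5 CPM, 258, 219 and 75 at 2-fold, and 3962, 4018 and 3955 with the last. Scaling on protein-coding genes alone, which also drops other genes, gave 32 higher in IKVAV PA against PDL and 148 lower between the scaffolds, and 99% intervals gave 48 higher in IKVAV PA against PDL. With 99% intervals members called higher were 5, 2 and 4, without Mobp in IKVAV PA against PDL and without Mal between the scaffolds. No scaling moved the median of all genes by more than 0.03 on the log2 scale. No paired analysis was possible because each group has 1 library. Depth limits the weakest members, above all Mal with 13 counts in PDL.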

Other observations

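Of 30 lineage genes too weak for the filter, 7 had the order of Mal, Mobp and Mag, highest in IKVAV PA + PEDOT-S and lowest in PDL, 6 had the opposite order, 14 had one of the other orders and 3 were tied. Ratios to PDL lay beyond 1.5-fold for 2 of them upward (Fa2h and Ppp1r14a) and 2 downward (Matn4 and Nkx2-2) in IKVAV PA + PEDOT-S, and for 0 upward and 3 downward in IKVAV PA (Plxnb3, Rassf10 and Nkx2-2). The genes given here with values were picked after those values were seen. Fa2h, which adds the hydroxyl group to the fatty acids of myelin galactolipids, had 22 counts in IKVAV PA + PEDOT-S, 16 counts in IKVAV PA and 4 counts in PDL. Its log2 ratio to PDL was 2.48 in IKVAV PA + PEDOT-S (0.93 to 4.48) and 1.35 in IKVAV PA (-0.28 to 3.39). Ppp1r14a, an inhibitor of myosin phosphatase found in oligodendrocytes, had 29 counts in IKVAV PA + PEDOT-S, 17 counts in IKVAV PA and 9 counts in PDL. Enpp6, a choline phosphodiesterase of newly formed oligodendrocytes, had IKVAV PA lowest, with 51 counts in IKVAV PA + PEDOT-S, 22 counts in IKVAV PA and 35 counts in PDL. It was 3.69-fold higher in IKVAV PA + PEDOT-S than in IKVAV PA by scaled counts (2.20 to 6.39). Gal3st1, which makes sulfatide from the product of Ugt8a, stood at 0.243 CPM in IKVAV PA + PEDOT-S, 0.120 CPM in IKVAV PA and 0.314 CPM in PDL, from 19, 15 and 25 counts. Its order was that of Ugt8a in having IKVAV PA lowest, but IKVAV PA + PEDOT-S was not the highest.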
